A study of Meloidogyne incognita with 75 samples.

Results

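The transcripts described here are 120 of the 43359 genes of Meloidogyne incognita that carry a single transcript in the deposited table of 45378 transcripts. They were chosen by their measured levels. Levels are in CPM, each count scaled to a common library total. A gene had to reach a mean of at least 10 CPM in each of par_J2, female and J4_moulting, which 6130 genes did. The score of a gene was its lowest stage mean of log2(CPM + 1) among par_J2, J3, J4, J4_female and female, minus the higher of its means in pre_J2 and male. The 120 genes of highest score were taken, out of 1462 with a positive score. The level in J4_moulting entered only through the floor of 10 CPM, so it was the part of the pattern that the score did not fix.

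Meloidogyne incognita is the southern root-knot nematode, a plant parasite. Smart-seq2, an assay for very little RNA, gave 75 libraries of 1 animal each. The 8 groups differ by developmental stage, judged from the animals' morphology, and no strain, treatment, host plant or age in days is given for them in the labels. They are 5 pre_J2 hatched from eggs in vitro, 12 par_J2, 14 J3, 8 J4, 14 J4_moulting, 8 J4_female, 7 adult female and 7 male libraries. The sex of the J4 and J4_moulting animals is not stated, nor whether J4_female animals come before or after J4_moulting, and the libraries titled male also carry the tag J4_male. Library totals lay between 3265447 and 40174566 counts, with 3265447 to 15503915 in J4, 9727803 to 26234699 in J4_moulting and 5086869 to 24701667 in J4_female. The part of this difference in depth in the results was not tested. The tables give identifiers without gene names, so no member is assigned a function.

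In root-knot nematodes the hatched juvenile is a motile worm that enters the root, settles at a feeding site of giant cells and swells. The third and the fourth juvenile stages are sedentary, lack a functional feeding stylet and stay inside older cuticles. The adult female remains in place, feeds and lays eggs, while the male becomes a slender worm again and leaves the root. At each moult a nematode builds a new cuticle and sheds the old one. As whole animals were sequenced, fewer cells of a type and less RNA per cell cannot be told apart.

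As a group these transcripts did not keep their sedentary level in moulting animals. In J4_moulting 37 of the 120 members, 30.8%, stood at or above the lowest of the 5 sedentary stages of the score, and 83 were below it. Of the other genes past the floors 89.1% stood at or above theirs. The members were chosen for a high value of that lowest stage, which favours such a count, so it is a description. The members are therefore called here the sedentary-stage transcripts, with the reminder that each had a mean of at least 10 CPM in moulting animals. The lowest such mean was 10.2 CPM, 24 members were under 20 CPM, and for 28 members the median moulting animal was under 10 CPM.

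Together the 120 members held a large part of the messenger RNA of the sedentary animals. Their share of the counts had a median of 6.03% in par_J2, with a range from 2.10 to 11.7%. In J3 it was 13.7%, from 8.28 to 19.6%, and in J4 it was 8.26%, from 5.08 to 29.4%. In J4_female it was 10.4%, from 2.03 to 22.5%, and in female 10.97%, from 9.13 to 22.3%. The moulting animals lay between these and the motile stages, at a median of 1.90%, from 0.684 to 7.39%. In pre_J2 the 5 libraries held 0.0594 to 0.0980%, and in male the share ran from 0.0756 to 1.99% with a median of 0.125%. The distance of pre_J2 and male from the sedentary stages is what the members were chosen for. The position of the moulting animals was not scored. Yet high sedentary levels, low motile levels and the moulting floor favour a place in between, so it is a description. Of the 14 moulting libraries only replicates 7 and 14, at 7.39 and 6.0%, held more than the lowest J4 library. Male replicates 2 and 3, at 1.99 and 1.15%, stood above the other 5 males, which were at or under 0.201%.

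**Figure D1:**
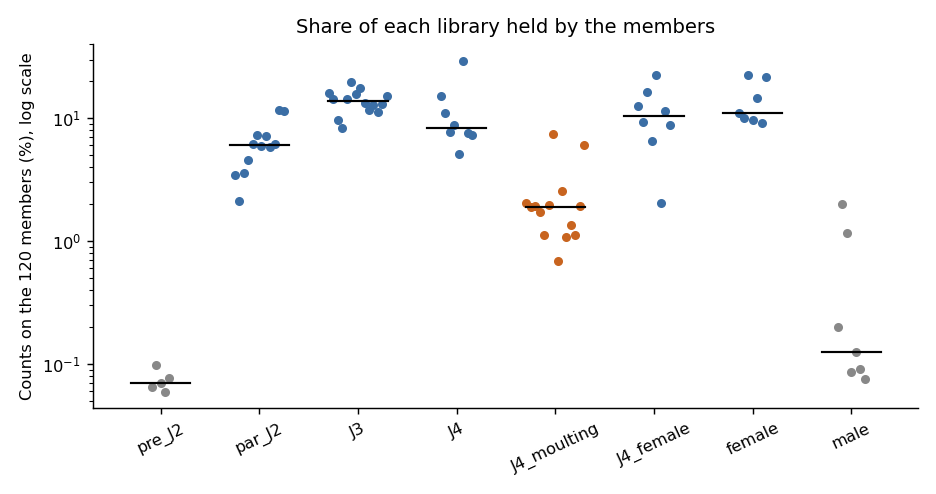
Percent of each library's counts that fall on the 120 members, on a log axis, with 1 point per library and a line at the stage median. The 14 moulting libraries have a median of 1.90%, between 0.0702% in pre_J2 and 8.26% in J4.

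The members differed among themselves in the stage where they stood highest. Among the 6 stages from par_J2 to female, the highest mean of log2(CPM + 1) was in J3 for 44 members, in female for 31, in par_J2 for 27, in J4 and in J4_female for 8 each and in J4_moulting for 2. Among the 5 stages of the score the lowest was par_J2 or female for 42 members each and J4_female for 26. These levels are scaled by the library total, and on this scale genes in general were lower in female. The median log2(CPM + 1) of the 6130 genes past the floors was 4.49 in female and 5.44 in par_J2. The difference between the highest and the lowest of the 5 stages of the score had a median of 1.88 on the log2 scale and ran from 0.44 to 5.38. The members also had the larger median SD of log2(CPM + 1) between animals of a stage. It was 1.53 for members against 0.79 for the 6130 genes past the floors in J4_moulting, 1.79 against 1.03 in J4_female, and 0.84 against 0.61 in J3. No test was made of this difference.

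**Figure D2:**
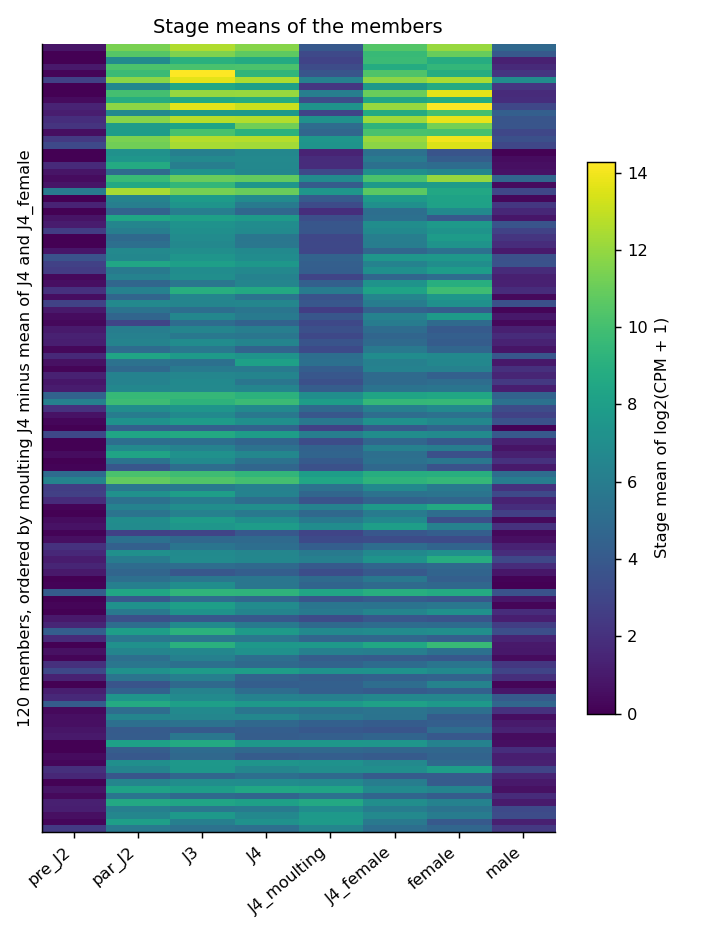
Stage means of log2(CPM + 1) for the 120 members (1 row each) in the 8 stages, ordered from the largest fall in J4_moulting at the top to the largest rise at the bottom. The moulting column is dark at the top, where 19 members lie at least 4 log2 units below the mean of J4 and J4_female, and as bright as its neighbours at the bottom.

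The 5 members of highest score, Mi_20124.1, Mi_23936.1, Mi_18093.1, Mi_02594.1 and Mi_16815.1, had scores from 7.90 to 8.79 and ranked between 1 and 7 of the 120 by mean level over the 6 stages. Mi_20124.1 ranged in par_J2 from 777 to 11828 CPM with a median of 4187, and in J3 from 5625 to 22418 CPM with a median of 12421. In J4 it ranged from 1529 to 35266 CPM around a median of 10480, in J4_female from 322 to 37456 around 6673, and in female from 4611 to 38293 around 24816. The 5 pre_J2 libraries stood at 0, 0, 6.69, 17.1 and 0 CPM, and the highest male at 20.6 CPM. So every sedentary animal outside the moult stood above every motile one for this gene, a separation that the rule favours. Mi_23936.1 had no count in any pre_J2 library and reached at most 12.2 CPM in males, while its mean in female was 15830 ± 8227 CPM (SD, n = 7).

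The next members by score varied in other ways. Mi_20738.1 had means of 1354 ± 660 CPM in par_J2 (SD, n = 12), 1487 ± 987 in J3 (n = 14), 1627 ± 1234 in J4 (n = 8), 1035 ± 1209 in J4_female (n = 8) and 896 ± 713 in female (n = 7). Mi_37256.1 had its highest mean in J3, at 1078 ± 949 CPM (n = 14), and 307 ± 248 CPM in female (n = 7). Mi_26885.1 was the most abundant member of J3, from 2457 to 85578 CPM with a median of 23117. In female its median was 567 CPM, yet replicate 6 held 30037 CPM and the next highest female 845 CPM. Mi_20219.1, another of the 5 members with the highest mean over the 6 stages, is taken up with the males.

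Moulting J4 animals were compared with J4 first, as the labelled stages that differ by the moult. The test was edgeR's quasi-likelihood test on all 32417 transcripts past a low-count filter, with library scaling by the trimmed mean of M values (TMM). A transcript was called where its Benjamini-Hochberg adjusted p over all of them was under 0.05 and it changed by 1 or more on the log2 scale. The p-values measure the spread between single animals. Of the 120 members, all tested, 41 were lower in J4_moulting, or 34.2%, and 0 were higher. Over all transcripts 3.41% were called lower and 5.09% higher, and among the other genes past the floors 5.02% and 3.61%. The median log2 fold change was -1.32 over the members and -0.04 over all transcripts. Of the 41 decreases 31 were at least 4-fold and 12 at least 16-fold. With the replicate number as a block in the fit, 18 were lower and 0 higher. DESeq2 also called 0 higher, and 2 had an unadjusted p under 0.05 in that direction. Without J4 replicate 2, 1 member was called higher, Mi_16250.1, and without J4 replicate 4, 2 were, Mi_13794.1 and Mi_32567.1, with 39 lower in each case. The members were picked for a high level in J4 among other stages, which favours decreases here, and the floor on J4_moulting removed genes with the deepest ones.

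**Figure D3:**
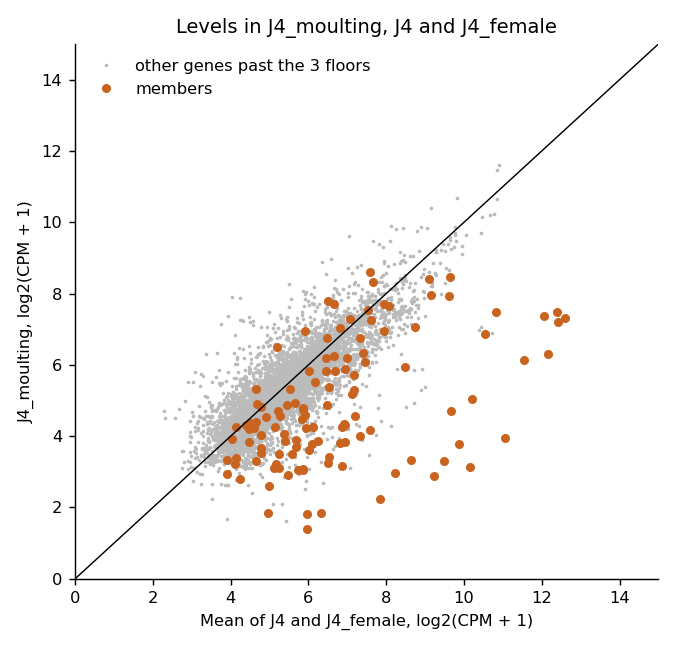
Mean log2(CPM + 1) in J4_moulting against the mean of J4 and J4_female, for the 120 members (orange) and the 6010 other genes past the 3 floors (grey), with the line of equal levels. Of the members 106 lie under the line, and 19 of them lie at least 4 log2 units under it.

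5 members had every moulting animal below every J4 animal, namely Mi_20738.1, Mi_24321.1, Mi_26751.1, Mi_00571.1 and Mi_42580.1. Over all transcripts tested 0.176% were separated in this direction. Mi_20738.1 ranged from 0.828 to 137 CPM in the moulting animals with a median of 8.76, and from 232 to 3761 CPM in J4 with a median of 1421. The log2 fold change was -6.78 (SE 0.88, edgeR adjusted p = 4.14e-05). Mi_24321.1 ranged from 1.52 to 32.3 CPM in J4_moulting with a median of 8.08, and from 46.5 to 3132 CPM in J4 with a median of 356. Its log2 fold change was -6.67 (SE 0.80, edgeR adjusted p = 1.64e-05). Both transcripts were thus lower in each of the 14 moulting animals than in any J4 animal.

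Mi_42580.1 fell by less. It ranged from 6.09 to 61.5 CPM in J4_moulting with a median of 18.1, against 69.8 to 179 CPM in J4 with a median of 95.5 (log2 fold change -2.27, SE 0.35, edgeR adjusted p = 0.000222). Mi_39206.1 had a moulting median of 18.1 CPM against 149.6 in J4, and 12 of the 14 moulting animals stood below every J4 animal (-3.38, SE 0.50, adjusted p = 0.000170). For Mi_07182.1 the medians were 4.84 and 239 CPM, and 13 of the 14 stood below every J4 animal (-4.85, SE 0.76, adjusted p = 0.000295). The lowest levels relative to J4 and J4_female were those of Mi_00571.1, Mi_26751.1 and Mi_26733.1, at 7.11, 7.04 and 6.33 log2 units below the mean of J4 and J4_female. Mi_00571.1 had a median of 11.6 CPM in J4_moulting, with 608 CPM in replicate 1, and 3607 CPM in J4. Mi_26751.1 had medians of 4.12 and 1676 CPM. Mi_26733.1 had medians of 4.98 and 551 CPM, and J4 replicate 6 alone held 18014 CPM.

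The 5 members of highest score behaved otherwise in the moulting animals. Their summed level was 12636 CPM or more in 5 of the 14 animals, replicates 2, 6, 7, 9 and 14, with 33581 CPM at most. It was 182 CPM or less in 7 animals, replicates 3, 4, 5, 8, 11, 12 and 13, with 12.9 CPM at least. Replicates 1 and 10 lay between, at 2784 and 772 CPM. In J4 the same sum ran from 4473 to 143689 CPM, in J4_female from 1170 to 143509 CPM, and in males from 12.2 to 156 CPM. The upper moulting animals thus lay within the range of J4, and the lower ones within or near that of males. The 5 members moved together: Mi_02594.1 stood at 10349 and 9035 CPM in moulting replicates 7 and 14 and at 2.10 CPM in replicate 12, where Mi_20124.1 stood at 3.74 CPM and Mi_23936.1 at 1.26 CPM. Whether they share reads, as near-identical gene copies would, was not tested. Their stage means in J4_moulting, 2562 ± 3749 CPM for Mi_02594.1 and 840.4 ± 1215 for Mi_20124.1 (SD, n = 14), lie between the upper and the lower animals.

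**Figure D4:**
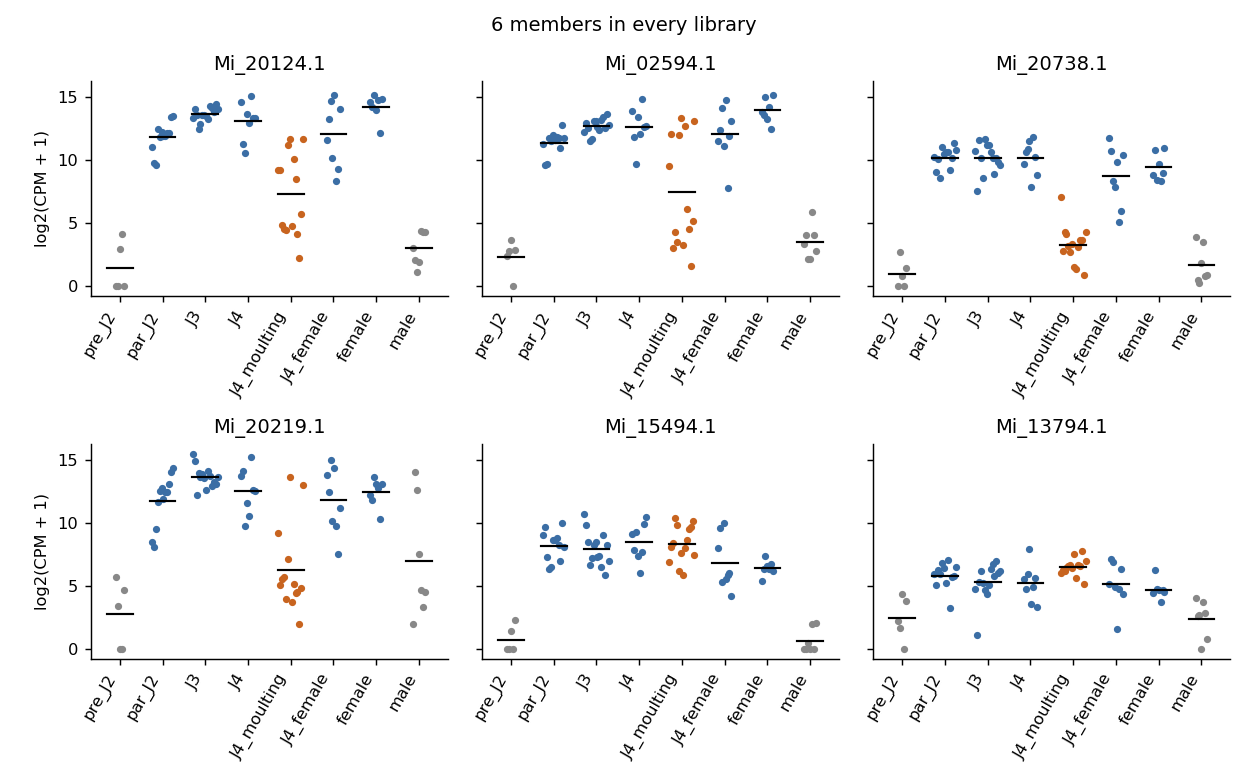
Log2(CPM + 1) of 6 members in every library, with 1 point per library and a line at the stage mean. Mi_20738.1 is lower in each of the 14 moulting animals than in any J4 animal. Among moulting animals Mi_20124.1, Mi_02594.1 and Mi_20219.1 are spread widely. Mi_15494.1 overlaps there with J4 and J4_female, and Mi_13794.1 has its highest stage mean there.

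The moulting mean of some members rested largely on few animals. For 13 members a single library held over 50% of the summed CPM of the 14. Mi_19199.1 had a mean of 767 ± 2234 CPM in J4_moulting, with 8202 CPM in replicate 7, 2411 CPM in the next highest and a median of 1.2 CPM. Its median was 153 CPM in J4 and 175 CPM in J4_female, so the typical moulting animal held far less and 2 held far more. Without replicates 7 and 14, 114 of the 120 members still had a moulting mean of 10 CPM or more. At the other end, 23 members reached 10 CPM in every moulting animal, compared with 89 members that did so in every J4 animal. 19 members had no count in at least 1 moulting animal.

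Other transcripts were nearer to their level in J4 and J4_female. The moulting mean lay within 1 log2 unit of the mean of J4 and J4_female for 42 members, 35.0%, and for 87.2% of the other genes past the floors, which were not chosen for a high J4 and J4_female level. It lay at least 1 unit above for 5 of the 120 members, Mi_13794.1, Mi_00260.1, Mi_16250.1, Mi_32567.1 and Mi_14488.1. The same held for 314 of the 6010 other genes past the floors, so such a rise is not particular to the members. Mi_13794.1 ranged from 34.3 to 218 CPM in J4_moulting with a median of 89.4, against medians of 38.0 CPM in J4 and 31.7 in J4_female. Mi_16250.1 had a median of 202 CPM against 109 and 164, and Mi_00260.1 of 327 CPM against 152 and 13.8, with single animals from 4.39 to 6690 CPM in J4_moulting. The groups overlapped in all of these, and with all libraries none was called in either comparison with J4_moulting. Without J4 replicate 2 the log2 fold change of Mi_16250.1 over J4 was 1.59 (edgeR adjusted p = 0.0156). Without J4 replicate 4 that of Mi_13794.1 was 1.58 (adjusted p = 0.0245) and that of Mi_32567.1 1.61 (adjusted p = 0.00374). All 5 had a lower mean of log2(CPM + 1) in female than in par_J2, as did 70 of all 120 members.

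Some members had consecutive identifiers. There were 3 such runs, Mi_00200.1 with Mi_00201.1, Mi_14487.1 to Mi_14490.1 and Mi_15491.1 to Mi_15494.1, which hold 10 members. The 120 genes next in score held 7 genes in 3 runs. The files do not say whether numbers follow position in the genome. The 8 members of both longer runs had moulting means from 35.5 to 487 CPM, and none was called in J4_moulting against J4 or J4_female against J4_moulting. Mi_15494.1 ranged from 57.1 to 1323 CPM in J4_moulting with a median of 300.5, and from 64.3 to 1427 CPM in J4 with a median of 388 (log2 fold change 0.12, SE 0.56, edgeR adjusted p = 0.932). Mi_14488.1 had medians of 359 and 348 CPM (0.41, SE 0.49, adjusted p = 0.680). With SEs of this size the missing call does not show an equal level. In female the median of each was 79.6 CPM. Of the 8, 7 had their lowest level of the 5 sedentary stages in female, as did 42 of all 120 members. Mi_00200.1 went from 1.66 to 6036 CPM between single moulting animals, with a median of 509 CPM against 153 in J4 and 894 in female.

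J4_moulting was compared next with J4_female, a stage that also belongs to the score. The members were picked for a high level in J4_female among other stages, which favours calls higher in J4_female here. Among 32251 transcripts, 2.46% were called higher in J4_female than in J4_moulting and 3.41% lower. Of the 120 members 33 were higher, 27.5%, and 0 lower by edgeR or DESeq2, with 1 at an unadjusted p under 0.05 in that direction. Of these 33, 28 rose at least 4-fold and 11 at least 16-fold. Among the other genes past the floors 4.81% were called higher. The members that were lower in J4_moulting than in J4 and those higher in J4_female than in J4_moulting shared 30 genes, 73.2% of the 41 and 90.9% of the 33. Both counts use the same moulting animals, so they are not independent. The 11 called only against J4 included Mi_20124.1 and Mi_05486.1, and the 3 called only against J4_female were Mi_11261.1, Mi_19856.1 and Mi_21837.1. With moulting replicates 7 and 14 left out, a choice made after the data were seen, 49 were lower than in J4 and 34 higher in J4_female. Without J4_female replicate 1 the second count was 24, and with the replicate number as a block in the fit it was 19.

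Mi_07182.1 was 1 of 3 members with every J4_female animal above every moulting one, beside Mi_00547.1 and Mi_08341.1, where 0.0992% of all transcripts were so separated. It ranged from 178 to 937 CPM in J4_female with a median of 415 (log2 fold change 5.29, SE 0.67, edgeR adjusted p = 3.02e-05). Mi_25647.1 had a median of 181 CPM in J4_female against 7.31 in J4_moulting (4.40, SE 0.54, adjusted p = 1.87e-05). Mi_24321.1 had a median of 526.3 CPM, with single animals from 5.90 to 8327 CPM (6.81, SE 0.85, adjusted p = 2.38e-05). For Mi_42580.1 the J4_female median was 153 CPM (3.05, SE 0.40, adjusted p = 4.59e-05), and for Mi_20738.1 it was 621 CPM (5.80, SE 0.86, adjusted p = 0.000195). For Mi_20738.1, 6 of the 8 J4_female animals stood above every moulting animal, and for the other 3 genes 7 did.

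**Figure D5:**
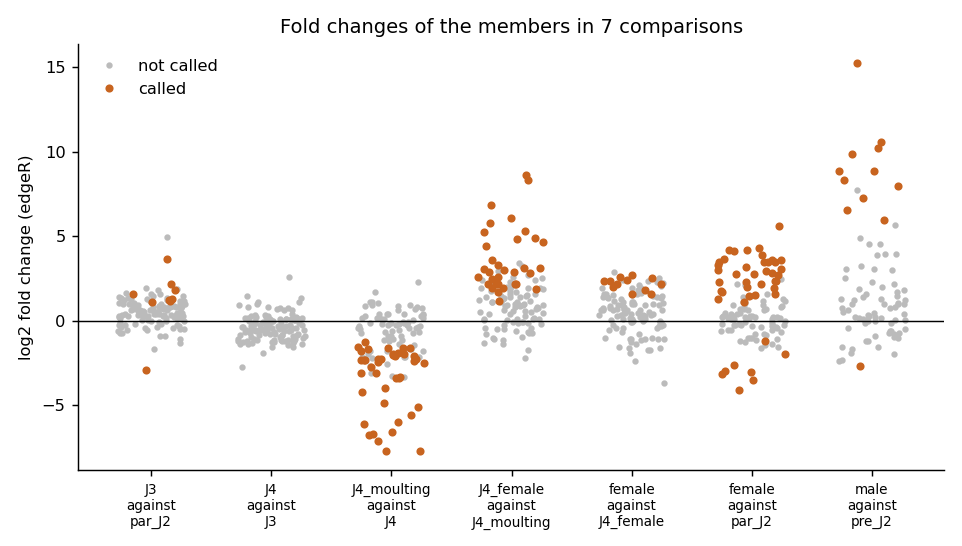
Log2 fold changes of the members that could be tested in each of 7 comparisons, the first named stage over the second, with called members in orange. The 41 calls in J4_moulting against J4 are all below 0 and the 33 in J4_female against J4_moulting all above 0.

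Among the stages par_J2, J3 and J4 fewer members were called. From par_J2 to J3, 8 of the 120 members were higher, 6.67%, and 1 was lower, 0.833%, compared with 1.08% and 2.87% of 25685 transcripts. The 8 were Mi_20124.1, Mi_18093.1, Mi_02594.1, Mi_26885.1, Mi_20122.1, Mi_03954.1, Mi_25647.1 and Mi_42580.1. The median log2 fold change was 0.55 over the members, 94 of which were above 0. The count depended on the method, with 24 higher and 1 lower by DESeq2, 13 and 1 with its size factors, and 1 and 1 in 1 fit of all 75 libraries. Mi_03954.1 went from a median of 24.7 CPM in par_J2, with 2.98 to 88.4, to 90.8 CPM in J3, with 49.4 to 179 (log2 fold change 1.81, SE 0.37, edgeR adjusted p = 0.00560). Mi_20122.1 had medians of 102 and 520.4 CPM (2.18, SE 0.47, adjusted p = 0.00730), and Mi_20124.1 rose with a log2 fold change of 1.59 (SE 0.34, adjusted p = 0.00659). The 1 decrease was Mi_07345.1, from a median of 599 CPM to 76.2 (-2.92, SE 0.56, adjusted p = 0.00380).

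Between J3 and J4 no member was called by edgeR, and 86 of the 120 had a fold change below 0 (log2). At an unadjusted p under 0.05, 1 was higher and 33 lower in J4, and DESeq2 called 0 higher and 7 lower. The median log2 fold change was -0.43 over the members and 0.10 over the 30708 transcripts tested. Over all transcripts 0.00651% were called higher and 0% lower.

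The adult female was compared with J4_female and with par_J2, and the direction of many changes depended on how libraries were scaled. The members were picked for a high level in all 3 stages on the scale of total counts, where genes in general were lower in female. This favours calls higher in female under TMM. Against J4_female, 12 of 120 members were higher, 10.0%, and 0 lower, with 3.65% and 0.734% of 26006 transcripts called. Among the other genes past the floors 4.69% were higher and 0.765% lower. At an unadjusted p under 0.05, 5 members were lower, and DESeq2 called 18 members higher and 2 lower. Scaled by total counts alone, 12 were lower and 0 higher, and 1 fit over all libraries called 0. That scaling moved the median log2 fold change of all transcripts from -0.23 to -1.28. With TMM the share of the counts on the members was 29.4% of the effective library size in female, against 14.01% of the total. The 3 with the smallest p were Mi_01262.1, Mi_19856.1 and Mi_32973.1. Mi_01262.1 had a median of 256.4 CPM in female, with 112 to 457, against 82.9 in J4_female, with 14.2 to 193 (log2 fold change 2.5, SE 0.56, edgeR adjusted p = 0.0138). With total counts alone it was at 1.43 (adjusted p = 0.0537), Mi_32973.1 at 1.19 (0.115) and Mi_19856.1 at 0.83 (0.193), each still above 0.

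Against par_J2, 36 members were higher in female, 30.0%, and 8 lower, 6.67%, with 8.25% and 8.70% of 25813 transcripts called. Total counts alone gave 24 higher and 34 lower, so the balance of the calls turned. The 6 members described next were called in the same direction under both scalings. Mi_03954.1 had a median of 300.2 CPM in female, with 61.7 to 374, against 24.7 in par_J2 (log2 fold change 4.16, SE 0.53, edgeR adjusted p = 4.05e-06). Mi_42580.1 went from 62.3 to 236 CPM (3.06, SE 0.42, adjusted p = 1.10e-05) and Mi_02594.1 from 3363 to 15006 CPM (3.86, SE 0.53, adjusted p = 1.14e-05). In each of the 3, 6 of the 7 females stood above every par_J2 animal.

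The members lower in female than in par_J2 were Mi_14488.1, Mi_37643.1, Mi_06960.1, Mi_07345.1, Mi_02168.1, Mi_00260.1, Mi_03944.1 and Mi_27522.1. Mi_27522.1 had a median of 12.5 CPM in female, with 2.03 to 23.2, against 378 in par_J2, with 64.2 to 1213 (log2 fold change -4.11, SE 0.66, edgeR adjusted p = 7.37e-05). Mi_03944.1 stood at 178 to 927 CPM against 2633 to 10790 CPM (-2.63, SE 0.43, adjusted p = 0.000109). All 7 females were below every par_J2 animal in both of these, as they were in 4 members, against 5.88% of all transcripts. Mi_07345.1 had medians of 34.4 and 599 CPM (-3.15, SE 0.76, adjusted p = 0.00465), and 1 female was below every par_J2 animal.

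In the motile animals the members were scarce by choice, and male was the higher of both stages for 87 members. 22 members had no count in any pre_J2 library and 1 in any male library, where 3 counts over the stage would be 0.0487 and 0.0192 CPM. A mean of 10 CPM or more was reached by 16 members in pre_J2 and by 37 in male. Some of these male levels came from few animals. Mi_20219.1 stood at 3.07, 17450, 6471, 191, 24.7, 8.89 and 21.6 CPM in male replicates 1 to 7. Mi_00571.1 stood at 697 and 631 CPM in replicates 2 and 3 and at 16.6 CPM or less in the others, and Mi_26751.1 at 487 and 989 CPM against 9.20 or less. Mi_12887.1 was at 263 CPM in replicate 1 and at most 0.632 CPM in the others. The moulting mean was above both motile stages for 115 members, which the low motile levels of the rule and the moulting floor favour. The exceptions were Mi_26751.1, Mi_00571.1, Mi_20219.1, Mi_08341.1 and Mi_07182.1. With male replicates 2 and 3 left out, a choice made after the data were seen, the count was 119.

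Male and pre_J2 were compared because the score used only the higher of them. The low-count filter passed 84 of the 120 members, and 11 were called higher and 1 lower in male, with 9.34% and 6.95% of 25331 transcripts called. A member that passed through its level in 1 stage had to differ, so the counts say little about the members. Without male replicates 2 and 3 they were 4 and 0. Leaving out pre_J2 replicate 1, 2, 3, 4 or 5 gave 10, 8, 5, 7 and 7 higher and 0 lower. The mean of Mi_05486.1 was 61.3 ± 104 CPM in the 7 males and 0.506 ± 0.718 CPM in the 5 pre_J2 libraries. Mi_04899.1 was at 18.2 ± 19.4 against 0.230 ± 0.322 CPM, and Mi_28856.1 had no count in pre_J2 and 0 to 21.9 CPM in male. These 3 levels are given as a description, with no test. Mi_03944.1 was the 1 member called lower, with 40.6, 149, 45.9, 39.1 and 74.6 CPM in pre_J2 and at most 38.3 CPM in male. As the rule used both stages, this too is a description. Mi_03944.1 was also the 1 member with every male below every pre_J2 animal, against 5.95% of all transcripts. Its call was lost without any 1 pre_J2 library.

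The score fell without a step at the limit of 120. The last genes taken, Mi_23405.1, Mi_13759.1 and Mi_32549.1, scored 2.25, 2.25 and 2.24, and the next ones, Mi_15558.1, Mi_41588.1 and Mi_05247.1, scored 2.24, 2.22 and 2.22. Mi_41588.1 stood at 927 CPM in J4 and 23.7 in J4_moulting, and Mi_05247.1 at 578 and 630 CPM. Without the floor on J4_moulting 37 of the 120 genes of highest score would be others, so the floor removed many genes with still lower moulting levels.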

How the data were processed

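The authors deposited whole-number counts per transcript, not normalized. The tools named are HISAT2 2.2.1 and StringTie 2.2.1, per the submitters' processing notes. The sources used here state no genome build, annotation, strand setting or treatment of near-identical copies, so levels of close copies are uncertain. Depth ran from 3265447 to 40174566 counts per library. Smart-seq2 reads carry no molecular identifiers, so floors cover counting error only. Each column name equals a library title, from which the stage was taken. Titles mark separate animals, and no batch is labelled.

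CPM over the library total chose the members. They, the comparisons and the limits on values were chosen with earlier results of these data known. Pairs of stages were fitted with edgeR 4.0.16 (filterByExpr, TMM, robust quasi-likelihood) in R 4.3.3 on all transcripts. The SE is the fold change (log2) divided by the root of F. DESeq2 1.42.0, other scalings, filters and libraries were alternatives. Levels were computed in Python 3.11.15 with pandas 2.3.3. Calls were checked on simulated counts with 200 changed transcripts, each of at least 10 CPM. Many of the smallest changes were missed there in every comparison. In male against pre_J2 many larger changes were missed as well. A missing call therefore does not show an equal level.

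The named members are the 8 of highest score, the 5 of highest mean over 6 stages, 3 on each side of the limit, the called members of smallest p in each direction (5 in the moulting comparisons, otherwise 3), and the 3 highest and 3 lowest in J4_moulting relative to J4 and J4_female. Other members named were chosen after their values were seen.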

Additional observations from a re-analysis of the deposited data

Results flagged for a closer look

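In groups of 5 to 8 libraries, 55 sets of values were examined for 1 library far from the rest, and 11 were flagged. Chance flags about 1 in 20 where sets are independent and values normally distributed. CPM of single members were skewed and several members moved together, so that rate does not apply here. The members' share of the counts was 29.4% in J4 replicate 6 and 15.2% in the next J4 library. In the same library Mi_20219.1 stood at 39597 CPM, against 18197 in the next. Male replicate 2 held 17450 CPM of Mi_20219.1, with 6471 in replicate 3. Male replicate 5 held 58.2 CPM of Mi_02594.1 and 45.6 of Mi_16815.1, against 15.9 and 20.01 in the next males. Mi_16815.1 stood at 34.7 CPM in pre_J2 replicate 1 and 3.79 in the next. Mi_23936.1 stood at 22676 CPM in J4_female replicate 5 and 8877 in the next. Mi_26885.1 was flagged in 4 stages, at 0.860 CPM in pre_J2 replicate 4 with 0 in the others, 37207 in J4 replicate 3 against 13107, 64546 in J4_female replicate 7 against 19754, and 30037 in female replicate 6 against 845.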

How the results depend on the processing

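Of the 120 members, 83 to 118 were kept under every other setting of the rule, 83 of them without the J4_moulting floor, 89 with a pseudocount of 10, 90 with floors of 20 CPM, 100 with TMM or DESeq2 scaling and 114 to 118 without 1 pre_J2 library. The count above both motile stages in J4_moulting was 112 to 119, and 114 to 115 without 1 pre_J2 library. The share of counts moved beyond its SD in pre_J2 (0.0890%) and female (29.4%) with TMM sizes, and in J3 (5.91%) and female (6.90%) without the 5 most abundant members. With total counts alone the balance was reversed in female against J4_female (12 calls, all lower) and against par_J2 (58 calls). DESeq2 called 25 in J3 against par_J2, 7 in J4 against J3, 20 in female against J4_female and 24 in male against pre_J2. A single fit called 2, 0 and 28 in J3 against par_J2, female against J4_female and female against par_J2, and 43 in male against pre_J2. DESeq2 size factors gave 14 in J3 against par_J2. Male against pre_J2 had 4 without male replicates 2 and 3, and 5 to 10 without 1 pre_J2 library. Moulting libraries were not left out 1 at a time. Leaving out 1 J4 library gave 38 to 41 calls in J4_moulting against J4. Of these 1 was higher without J4 replicate 2, 2 without J4 replicate 4 and 0 otherwise. Leaving out 1 J4_female library gave 24 to 38 calls in J4_female against J4_moulting. The cause of these moves was not tested. The replicate number as a block gave 18 and 19 calls in the moulting comparisons and 1 in male against pre_J2. Same-numbered libraries are separate animals, and no batch is labelled. Their deviations from the stage means had correlations from -0.26 to 0.313, with medians per comparison from -0.0274 to 0.0479. Whether same-numbered animals share a processing step was not tested. Of 280 single-gene results under alternatives, 257 kept their call and 23 lost it, none with a change of sign. They cover only the called members of smallest p, refitted largely on the same libraries, which favours keeping the call. Without a low-count filter the moulting counts were 41 and 30.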

Other observations

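Mi_04922.1, chosen here after its values were seen, was very high in a few sedentary animals. It reached 10 CPM in 9 of 14 J3, 3 of 8 J4, 4 of 8 J4_female and 3 of 7 female animals. Its median was 13.5 CPM in J3, 1.78 in J4, 9.21 in J4_female and 6.99 in female. The highest animals of these stages held 13719, 29121, 39344 and 17466 CPM. In female the high library, replicate 6, was also the one with 30037 CPM of Mi_26885.1. In J4_moulting it reached 228 CPM at most. A stage mean of log2(CPM + 1) put it among the members at rank 94.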
